A study of Mus musculus with 6 samples.

Results

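Red pulp and marginal zone macrophages are the resident phagocytes of the spleen, and 10 genes that mark them or carry out their work were followed here in bulk RNA from splenic CD11b+ cells sorted by flow cytometry. The genes were Spic, Vcam1, Cd163, Mrc1, Slc40a1, Hmox1, Siglec1, Marco, Cd5l and Timd4. They were taken by symbol from a table of 55335 Ensembl mouse genes, and all 10 were among the 14849 genes with enough counts to be tested. The study compared wild-type mice with myocardial infarction plus renal denervation, the ablation of the nerves of the kidney (MI+RDN, 3 libraries), with wild-type mice with myocardial infarction alone (MI, 3 libraries). Every animal therefore had an infarct. The labels give no strain, sex or age, no interval between surgery and cell collection, and no method of denervation, and they do not say whether a library came from 1 mouse or several.

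Red pulp macrophages clear worn-out red cells from the blood. They split haem, return its iron to the circulation through the exporter ferroportin, and depend on the transcription factor Spi-C, which haem induces by causing the repressor Bach1 to be degraded. Marginal zone macrophages sit where blood enters the white pulp and take up particles and microbes through scavenger receptors, and a neighbouring layer of metallophilic macrophages carries the sialic acid receptor CD169. Mouse red pulp macrophages carry much F4/80 and little CD11b, so a CD11b sort need not hold all of them.

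None of the 10 genes passed the test between MI+RDN and MI (edgeR quasi-likelihood test, Benjamini-Hochberg adjustment over all genes, threshold 0.05), where 1.01% of all genes passed. Their estimates nevertheless differed from gene to gene. The macrophage regulator Spic, the adhesion molecule Vcam1 and the receptors Mrc1, Cd163, Timd4 and Marco had every MI+RDN library under every MI library, at 0.382 to 0.551 times the MI level. The iron exporter Slc40a1 and the haem-degrading enzyme Hmox1 overlapped between the groups, at 1.21 and 0.9995 times the MI level. Non-overlap in the lower direction, seen in 6 of the 10 genes, was seen in 13.7% of all genes tested. The same 6 genes had an unadjusted edgeR p under 0.05, which 10.1% of all genes had in the lower direction; without MI replicate 3 this held for 3 of them and with robust edgeR for 4. DESeq2's Wald test, run as an alternative, called 4 of the 10 (Spic, Cd163, Mrc1 and Timd4, each lower), in an analysis where it called 7.65% of all genes in either direction. In bulk RNA, fewer cells of a type and less RNA per cell cannot be told apart.

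Promoter sequences are shown for Spic, Mrc1 and Marco, members from the red pulp and the marginal zone whose levels were lower together. They run from 250 bases before to 50 bases after the start of the gene, come from RefSeq on build GRCm38.p6, and are printed 5′ to 3′ on the strand of the gene. A sequence of this kind was held for 6 of the 10 members. Capitals mark the PU-box, GAGGAA, on either strand, the core bound by PU.1 and Spi-C, which belong to the same branch of the ETS family. The Spic window lies at chr10:88682974-88683273 on the minus strand, the Mrc1 window at chr2:14229164-14229463 on the plus strand and the Marco window at chr1:120504975-120505274 on the minus strand.
Spic: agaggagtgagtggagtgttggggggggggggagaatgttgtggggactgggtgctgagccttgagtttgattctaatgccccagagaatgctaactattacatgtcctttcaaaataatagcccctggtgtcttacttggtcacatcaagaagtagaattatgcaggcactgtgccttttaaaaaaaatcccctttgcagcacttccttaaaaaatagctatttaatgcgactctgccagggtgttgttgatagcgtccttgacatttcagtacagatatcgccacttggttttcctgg
Mrc1: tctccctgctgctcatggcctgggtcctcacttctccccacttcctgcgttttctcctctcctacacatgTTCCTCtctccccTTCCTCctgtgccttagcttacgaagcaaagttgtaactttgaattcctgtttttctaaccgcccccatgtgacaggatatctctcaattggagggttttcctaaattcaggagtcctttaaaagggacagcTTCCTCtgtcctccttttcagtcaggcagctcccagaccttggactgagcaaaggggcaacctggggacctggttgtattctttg
Marco: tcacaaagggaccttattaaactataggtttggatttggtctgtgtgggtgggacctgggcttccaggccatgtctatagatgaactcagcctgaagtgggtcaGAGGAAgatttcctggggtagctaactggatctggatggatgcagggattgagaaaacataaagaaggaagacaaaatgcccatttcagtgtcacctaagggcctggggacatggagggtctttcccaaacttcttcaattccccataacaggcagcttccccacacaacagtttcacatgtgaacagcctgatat

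The Mrc1 window held 3 PU-box matches, all on the opposite strand, which begin 180, 167 and 35 bases before the start. At least 3 matches were present in 0.685% of the 32851 promoter windows of this length, where a gene may have several, and at least 1 in 28.3%. The Marco window held 1 match, 146 bases before the start, and the Cd5l window 1 match, 66 bases before the start. No match to these letters stood in the Spic, Cd163 and Timd4 windows. A second motif, TGACNNNGC on either strand, the core of the element that Bach1 and its activating counterpart Nrf2 bind, was found in none of the 6 windows and in 12.4% of all windows.

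**Figure D1:**
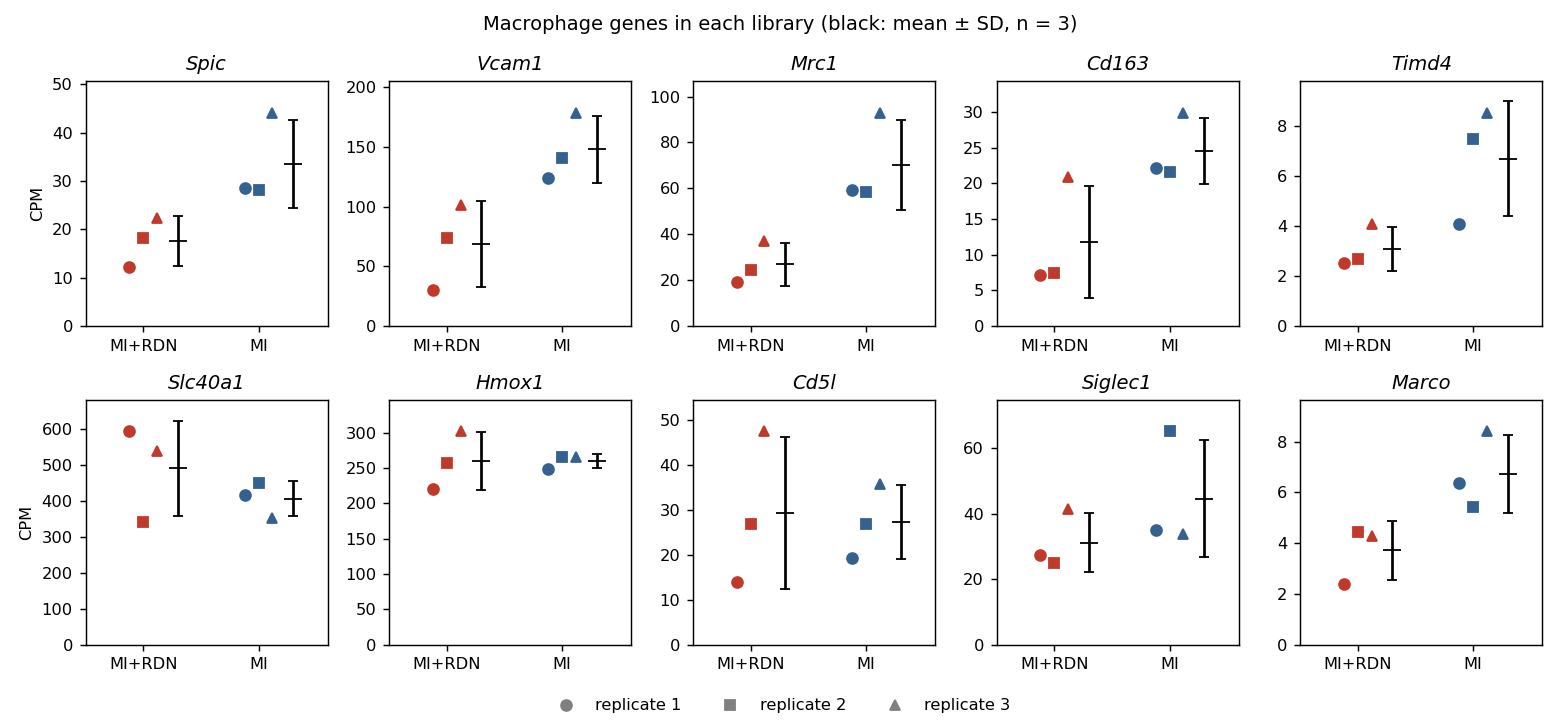
Level of each of the 10 genes in each library, in CPM (counts scaled to a common library size with TMM factors), with MI+RDN left of MI, 1 point per library and the mean ± SD of 3 in black; axes start at 0 and differ between panels. Spic, Vcam1, Mrc1, Cd163, Timd4 and Marco have all MI+RDN points below all MI points, whereas Slc40a1, Hmox1, Cd5l and Siglec1 overlap.

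Spic (ENSMUSG00000004359) encodes the ETS factor Spi-C, which red pulp macrophages need to form. It was measured at 12.2, 18.2 and 22.4 CPM in MI+RDN replicates 1 to 3, against 28.5, 28.1 and 44.1 CPM in MI replicates 1 to 3. The groups did not overlap, and the highest MI+RDN library was 5.75 CPM under the lowest MI library. Its log2 fold change was -0.93 with a 95% interval from -1.52 to -0.34 (SE 0.25, edgeR adjusted p = 0.108).

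Vcam1 (ENSMUSG00000027962), the vascular cell adhesion molecule that binds the integrin of Itga4 and Itgb1 and that red pulp macrophages carry on their surface, spanned a wider range within MI+RDN. It stood at 30.3, 74.0 and 102 CPM in MI+RDN, against 124, 141 and 178 CPM in MI. MI+RDN replicate 1 was the lowest library by far, and the log2 fold change of -1.11 (95% interval -1.98 to -0.23, edgeR adjusted p = 0.166) became -0.75 without it. An exon of Vcam1 overlaps an antisense gene, Gm43109, in the GENCODE M21 annotation, and the strand setting of the counts is not given in the sources used here.

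Mrc1 (ENSMUSG00000026712) encodes the mannose receptor, a lectin that red pulp macrophages and some endothelial cells use to take up glycoproteins. It had the lowest p of the 10 genes. Its levels were 19.0, 24.4 and 37.1 CPM in MI+RDN, against 59.2, 58.6 and 92.8 CPM in MI, so that the groups were well apart. This gave a log2 fold change of -1.39, with a 95% interval from -2.02 to -0.76 (SE 0.27, edgeR adjusted p = 0.0571). The gene did not pass in 11 of 15 alternatives, among them each of the 6 that left out 1 library (edgeR adjusted p from 0.0529 to 0.175). It passed in 4, which include DESeq2 (adjusted p = 7.67e-06), edgeR without scaling factors (adjusted p = 0.0338) and edgeR with only genes at a mean of 5 CPM or more (adjusted p = 0.0480).

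Cd163 (ENSMUSG00000008845), the scavenger receptor for complexes of haemoglobin and haptoglobin, had 7.20, 7.38 and 20.9 CPM in MI+RDN, against 22.1, 21.6 and 29.9 CPM in MI. The groups were only just apart, since MI+RDN replicate 3 came within 0.668 CPM of the lowest MI library. The log2 fold change was -1.06 with all libraries (95% interval -1.99 to -0.13, edgeR adjusted p = 0.203). Without MI+RDN replicate 3 it was -1.77 and passed (edgeR adjusted p = 0.0327).

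Timd4 (ENSMUSG00000055546) encodes Tim-4, a receptor for the phosphatidylserine that dying cells expose. It was a low gene, with 65 to 95 counts per library in MI+RDN and 96 to 228 in MI. In CPM it stood at 2.50, 2.67 and 4.08 in MI+RDN, against 4.09, 7.49 and 8.52 in MI. MI+RDN replicate 3 and MI replicate 1 differed by 0.00623 CPM, so the separation of the groups rests on a margin smaller than counting error. The log2 fold change was -1.12 (95% interval -1.87 to -0.37, edgeR adjusted p = 0.123).

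Slc40a1 (ENSMUSG00000025993), which encodes ferroportin, the only known iron exporter of mammalian cells, did not follow these genes. It had 593, 341 and 538 CPM in MI+RDN, against 417, 450 and 352 CPM in MI. MI+RDN replicate 1, the lowest library for Spic, Vcam1, Mrc1 and Cd163, was the highest for Slc40a1, and the groups overlapped because of MI+RDN replicate 2. The log2 fold change was 0.27 with a 95% interval from -0.20 to 0.74 (edgeR adjusted p = 0.494), and its size rested on single libraries. The estimate became 0.46 when MI+RDN replicate 2 was left out. Dropping MI+RDN replicate 1 gave 0.12, and dropping either MI+RDN replicate 3 or MI replicate 3 gave 0.18, with no pass in any of these fits (edgeR adjusted p from 0.113 to 0.831). The interval allows a difference of up to 0.74 on the log2 scale, and one as low as that estimated for Spic lies outside it.

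Hmox1 (ENSMUSG00000005413) encodes haem oxygenase 1, which opens the haem ring and frees its iron. It had 221, 257 and 302 CPM in MI+RDN, against 249, 265 and 266 CPM in MI, where it was the steadiest of the 10 genes. The MI+RDN libraries lay on both sides of the MI libraries. The log2 fold change was -0.00068 with a 95% interval from -0.29 to 0.29 (edgeR adjusted p = 0.998), and its sign turned under several alternatives.

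Cd5l (ENSMUSG00000015854), a secreted scavenger receptor protein of macrophages also called AIM, was widely spread within MI+RDN. It stood at 13.9, 26.7 and 47.4 CPM in MI+RDN, against 19.2, 26.8 and 35.6 CPM in MI. The MI libraries lay inside the MI+RDN range. Its log2 fold change was 0.11 with a 95% interval from -0.84 to 1.05, wide enough to hold the fold changes of Slc40a1, Hmox1 and Siglec1 alike (edgeR adjusted p = 0.911). Its sign turned in 5 of 15 alternatives, with estimates from -0.43 when MI+RDN replicate 3 was left out to 0.45 when MI+RDN replicate 1 was.

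The marginal zone was represented by Marco and Siglec1. Marco (ENSMUSG00000026390), a class A scavenger receptor of marginal zone macrophages, was low, at 62 to 122 counts per library in MI+RDN and 120 to 225 in MI. It had 2.39, 4.46 and 4.30 CPM in MI+RDN, against 6.39, 5.41 and 8.41 CPM in MI, with no overlap. The log2 fold change was -0.86 (95% interval -1.53 to -0.19, edgeR adjusted p = 0.162). Siglec1 (ENSMUSG00000027322), which encodes CD169 of metallophilic macrophages, had 27.4, 24.8 and 41.4 CPM in MI+RDN, against 34.9, 65.2 and 33.9 CPM in MI. Its groups overlapped, and the log2 fold change of -0.52 (95% interval -1.19 to 0.15, edgeR adjusted p = 0.363) was -0.14 without MI replicate 2, the highest library, and -0.79 without MI+RDN replicate 3.

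**Figure D2:**
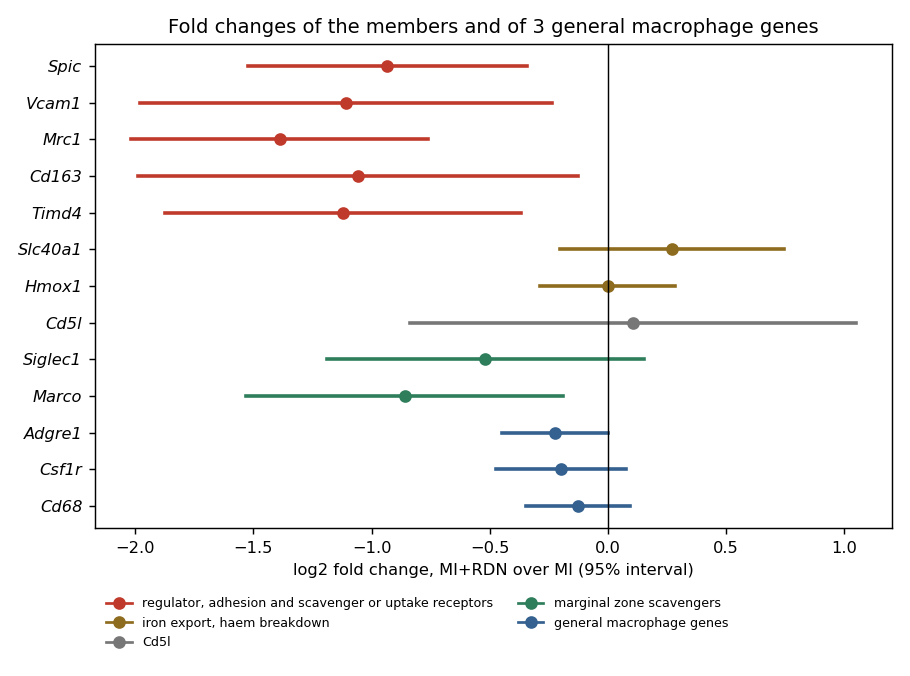
Log2 fold change of MI+RDN over MI (point) with its 95% interval (line) for the 10 genes, ordered by role, and for 3 general macrophage genes. The intervals of Spic, Vcam1, Mrc1, Cd163, Timd4 and Marco lie below 0 before adjustment, from -1.39 to -0.86 at their centres. Those of Slc40a1, Hmox1, Cd5l, Siglec1, Adgre1, Csf1r and Cd68 include 0, that of Adgre1 only just (upper end 0.0007). Cd68 was chosen after its value was seen.

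The red pulp iron recycling genes as listed (Spic, Slc40a1, Hmox1 and Vcam1) were then set against the marginal zone scavengers (Marco and Siglec1) within each library, as the difference of mean log2 CPM. Anything that scales all 6 genes alike cancels in this measure, and it is given without a test because it is a score over chosen genes. It was 3.34, 3.30 and 3.37 in MI+RDN, against 3.20, 2.96 and 3.28 in MI. The groups were apart by 0.0181 at the nearest point, and the mean difference between them was 0.19 (MI+RDN 3.33 ± 0.03, MI 3.15 ± 0.16, SD, n = 3 each). With Marco alone as the marginal zone gene the mean difference was 0.38, and with Siglec1 alone it was -0.0080.

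That small difference covered a larger one inside the red pulp set, in pairs chosen after the values had been seen. The mean of Spic and Vcam1 minus the mean of Slc40a1 and Hmox1 was -4.23, -3.01 and -3.08 in MI+RDN, against -2.44, -2.45 and -1.79 in MI. The mean was 1.21 lower in MI+RDN than in MI, a shift of the regulator and adhesion gene relative to the iron and haem genes of the same libraries, and the groups did not overlap. The mean of Slc40a1 and Hmox1 minus that of Marco and Siglec1 was 5.46, 4.80 and 4.90 in MI+RDN, against 4.42, 4.19 and 4.17 in MI. The mean of Spic and Vcam1 minus that of Marco and Siglec1 was 1.23, 1.79 and 1.83 in MI+RDN, against 1.98, 1.74 and 2.39 in MI, and overlapped. The mean of the iron and haem genes stood higher relative to each of the other pairs in every MI+RDN library than in any MI library. The red pulp set was split by its fold changes, so this separation was partly built in and adds no support to them.

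**Figure D3:**
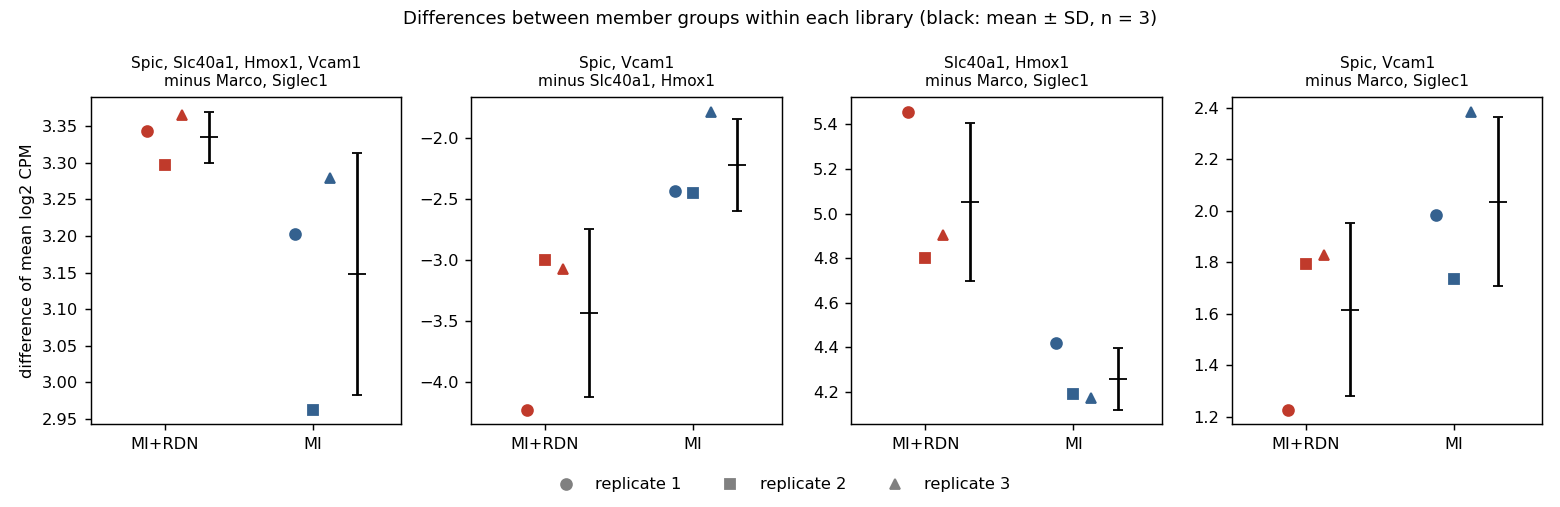
Differences of mean log2 CPM between groups of the 10 genes within each library, with MI+RDN left of MI, 1 point per library and the mean ± SD of 3 in black; the axes do not start at 0 and differ between panels. Spic and Vcam1 relative to Slc40a1 and Hmox1 stand from -4.23 to -3.01 in MI+RDN and from -2.45 to -1.79 in MI. The pairs within the red pulp set were chosen after their values had been seen.

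Levels of different genes were compared per kilobase of exon, with exon lengths from GENCODE M21. Hmox1 was the most abundant of the 10 in both groups, at 149 ± 23.1 CPM per kilobase in MI+RDN and 149 ± 5.45 in MI (SD, n = 3). Slc40a1 was next, at 54.5 ± 14.7 CPM per kilobase in MI+RDN and 45.1 ± 5.50 in MI. These 2 genes did not overlap with each other or with the gene that came after them in either group. Among the other 8 genes, each but the last overlapped with the next in order. Vcam1 averaged 7.74 ± 4.06 CPM per kilobase in MI+RDN and 16.7 ± 3.13 in MI. Mrc1 averaged 4.21 ± 1.46 in MI+RDN and 11.0 ± 3.08 in MI on the same scale. Marco (1.93 ± 0.60 in MI+RDN, 3.50 ± 0.79 in MI) and Timd4 (1.42 ± 0.40 in MI+RDN, 3.08 ± 1.07 in MI) were the lowest of the 10. Hmox1 and Slc40a1 are not confined to splenic macrophages, and which cells of the sort their reads came from was not tested.

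The libraries at the extremes were largely the same from gene to gene. MI+RDN replicate 1 was the lowest of the 6 libraries for 8 of the 10 genes, all but Slc40a1 and Siglec1. MI replicate 3 was the highest for 6 of them, the same 6 genes whose groups did not overlap. As log2 CPM centred over the 6 libraries, Vcam1 ranged from -1.64 in MI+RDN replicate 1 to 0.92 in MI replicate 3. The genes closest to Spic in this pattern, by the root mean square distance of centred log2 levels among genes with a mean of at least 1 CPM, were Cdh17, Armcx2, Btbd3, Dbn1 and Cd226, at 0.0514 to 0.113. Those closest to Marco were Cd1d1, which is also on the B cell marker list used below, Plxna1, Gpr171, Prdm11 and Macrod1, at 0.0774 to 0.135. None of these neighbours passed the test.

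Markers of several other cell types also differed between the libraries. Of 14 B cell markers, 13 had all MI+RDN libraries below all MI libraries, beside 13.7% of all genes. In edgeR as reported 0 passed, with the lowest p in Fcer2a, Ebf1 and Cd22 (log2 fold changes of -1.55, -1.07 and -0.76). DESeq2 called 12 of them. With edgeR 9 passed without scaling factors and 9 with replicate number as a block. There were 3 with genes under 5 CPM on average removed, 3 with robust edgeR and 3 without MI+RDN replicate 3. In 9 of 15 alternatives 0 passed. The summed level of the B cell markers was 520 to 695 CPM in MI+RDN, against 822 to 1115 CPM in MI. Their mean level was lowest in MI+RDN replicate 1 (-0.69 as centred log2 CPM) and highest in MI replicate 3 (0.72), as for Spic and for the mean of the dendritic cell markers. The 14 conventional dendritic cell markers summed to 1480 to 1657 CPM in MI+RDN, against 1935 to 2170 CPM in MI, and 12 were lower with no overlap. Past the threshold were 5 of them, Kmo, Zbtb46, Cd209a, Clec10a and Kit, at log2 fold changes of -2.15 to -0.73, but 0 passed without a filter or in any of the 6 fits that left out 1 library, and DESeq2 called 10. The 14 T cell markers summed to 48.9 to 83.4 CPM in MI+RDN, against 114 to 145 CPM in MI, and 12 were lower with no overlap. Of these 1 passed, Cd3d, a chain of the T cell receptor complex (log2 fold change -1.47). The count was 0 with limma-voom, without a filter, with replicate number as a block or with any 1 library left out. DESeq2 called 8 of the 14 T cell markers, edgeR without scaling factors 6 and robust edgeR 2. Neutrophil markers went the other way, at 30187 to 53978 CPM over 15 genes in MI+RDN, against 16852 to 26130 CPM in MI, with all 15 fold changes positive and 8 genes higher with no overlap, beside 12.4% of all genes. Past the threshold were 2, Retnlg and Ly6g, at log2 fold changes of 1.26 and 1.55, while 0 passed without a filter or in 5 of the 6 fits that left out 1 library (all but that without MI+RDN replicate 2), and DESeq2 called 8. The neutrophil mean was highest in MI+RDN replicate 2. Monocyte markers overlapped, at 9142 to 11234 CPM over 14 genes in MI+RDN and 10219 to 11408 CPM in MI. Of the monocyte markers 1 passed, Ly6c2, at a log2 fold change of 0.92, with 0 past the threshold when any 1 library was left out. DESeq2 called 2 of them. The part of these cells in the results for the macrophage genes was not tested.

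Vcam1 and Mrc1 are also endothelial genes. Of 15 endothelial markers 7 were tested and 0 passed, and all 15 summed to 78.5 to 95.6 CPM in MI+RDN, against 105 to 125 CPM in MI. With no overlap 3 of the 7 were lower and 0 higher, beside 13.7% and 12.4% of all genes. Emcn and Cldn5 were at 0 in all libraries, and Cdh5 reached at most 1.16 CPM. These genes were named after their values were seen and do not stand for the whole list. Pecam1 and Lyve1, next in p on the list after Stab2, had log2 fold changes of -0.33 and 2.05, the second at a mean of 1.51 CPM in MI+RDN and 0.37 CPM in MI. Stab2, a scavenger receptor of sinusoidal endothelium on that list, averaged 6.86 ± 3.49 CPM in MI+RDN and 14.3 ± 3.49 CPM in MI (edgeR adjusted p = 0.171). Of 14 stromal markers 3 were tested and 0 passed, Lum was at 0 in all libraries, and the list summed to 23.4 to 35.9 CPM in MI+RDN, against 31.0 to 47.5 CPM in MI; the tested genes were Col1a1, Pdgfrb and Acta2. The part of endothelial and stromal cells in the results was not tested.

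**Figure D4:**
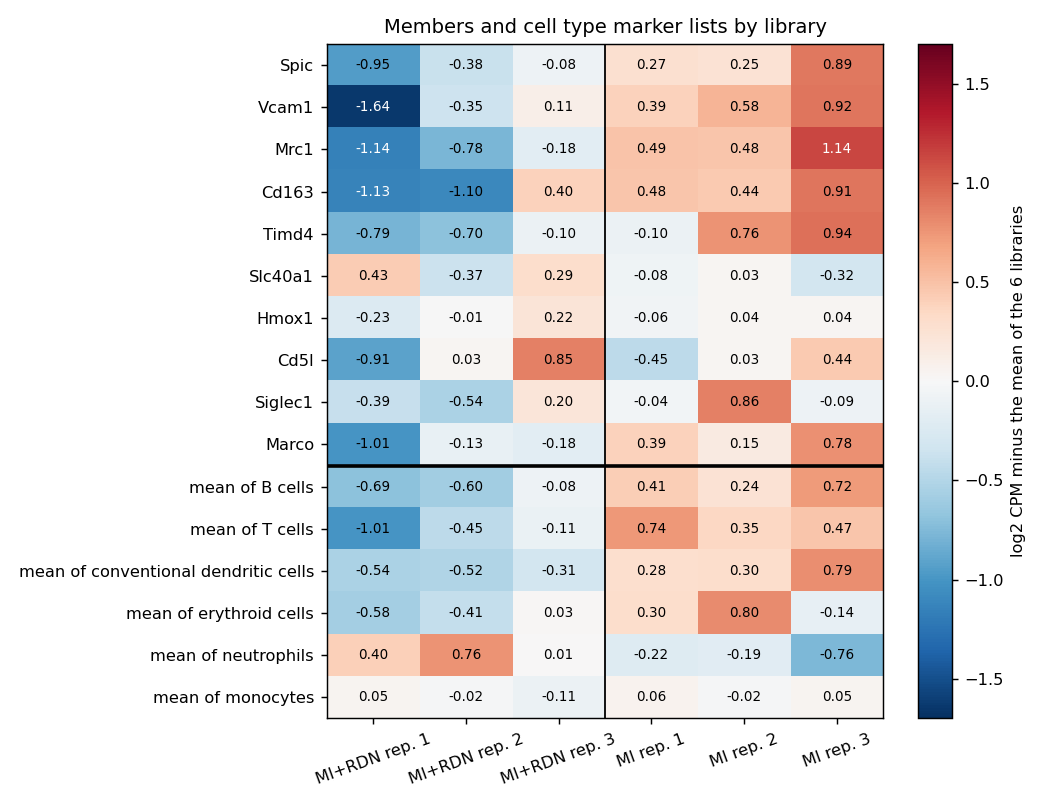
Level of the 10 genes (above the line) and mean level of the markers of 6 cell types (below it) in each library, as log2 CPM minus the mean of the 6 libraries, MI+RDN left and MI right. MI+RDN replicate 1 is lowest and MI replicate 3 highest for Spic, Vcam1, Mrc1, Cd163, Timd4 and Marco and for the B cell mean, and the neutrophil mean runs the other way in MI replicate 3.

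The iron and haem pathway around the members did not pass in any gene. Of 25 genes listed, 22 were tested, 0 were higher and 0 lower past the threshold, and the median log2 fold change was -0.02, beside 0.0080 for all genes tested. The ferritin subunits that store iron stood at 1976 ± 114 CPM in MI+RDN and 1811 ± 321 CPM in MI for Fth1 and at 3188 ± 324 CPM in MI+RDN and 2639 ± 323 CPM in MI for Ftl1, a gene with near-identical copies whose reads may be shared. Trf, which encodes the plasma iron carrier transferrin, had the lowest p of the list, at 240 ± 31.7 CPM in MI+RDN and 350 ± 43.3 CPM in MI (log2 fold change -0.55, edgeR adjusted p = 0.0892). Hp, the haptoglobin that captures free haemoglobin for uptake through Cd163, averaged 2102 ± 62.6 CPM in MI+RDN and 1379 ± 239 CPM in MI (log2 fold change 0.61, edgeR adjusted p = 0.0946), with the groups apart. Aco1, the cytosolic aconitase that senses iron as IRP1, averaged 33.8 ± 1.72 CPM in MI+RDN and 40.1 ± 0.85 CPM in MI. Erythroid markers, which red cells taken up by macrophages also carry, summed to 183 to 253 CPM over 15 genes in MI+RDN, against 397 to 786 CPM in MI, with 0 of 11 tested past the threshold. The lowest p among them were those of the globin genes Hbb-bs, Hbb-bt and Hba-a1. Hbb-bs and Hbb-bt are close copies that may share reads with each other, as may Hba-a1 with its copy Hba-a2. The part of the erythroid markers in the macrophage gene levels was not tested.

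Among regulators of splenic macrophages, 1 of 21 tested genes passed, beside 1.01% of all genes. There were 8 lower and 3 higher with no overlap, beside 13.7% and 12.4% of all genes. Runx3, a Runt-family factor that lymphocytes and dendritic cells also use, fell to 36.8 ± 2.85 CPM in MI+RDN, against 56.3 ± 2.72 CPM in MI (log2 fold change -0.61, SE 0.09, edgeR adjusted p = 0.0401). It was not called in 7 of 15 alternatives, among them leaving out MI+RDN replicate 1 or 3 or any MI library, with edgeR, limma-voom or DESeq2 adjusted p from 0.000166 to 0.136, while the log2 fold change stayed between -0.75 and -0.57. The list had a median log2 fold change of -0.25. Bach1, the haem-sensitive repressor of Spic, Hmox1 and Slc40a1, averaged 297 ± 50.1 CPM in MI+RDN and 250 ± 21.3 CPM in MI (edgeR adjusted p = 0.365). Nr1h3, the liver X receptor that marginal zone macrophages need, averaged 16.0 ± 6.81 CPM in MI+RDN and 21.0 ± 1.89 CPM in MI (edgeR adjusted p = 0.469). Csf1r, the receptor for the main macrophage growth factor, averaged 1311 ± 116 CPM in MI+RDN and 1503 ± 37.4 CPM in MI (log2 fold change -0.20, edgeR adjusted p = 0.397).

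Adgre1 and Csf1r, general macrophage genes, did not pass. For both, every MI+RDN library was under every MI library, as in 13.7% of all genes. Adgre1, which encodes F4/80, averaged 182 ± 5.14 CPM in MI+RDN and 212 ± 20.7 CPM in MI (log2 fold change -0.22, edgeR adjusted p = 0.253). Cd68, a lysosomal protein of phagocytes, had a log2 fold change of -0.13. The sort marker Itgam averaged 1598 ± 95.2 CPM in MI+RDN and 1133 ± 150.2 CPM in MI and did not pass (edgeR adjusted p = 0.109). Every MI+RDN library was above every MI library for Itgam, as in 12.4% of all genes. Of 22 further red pulp genes all were tested and 0 passed, 9 were lower and 2 higher with no overlap, beside 13.7% and 12.4% of all genes, and the median log2 fold change was -0.23. Itgad, the CD11d integrin chain that red pulp macrophages carry, was at 11.5, 16.1 and 30.8 CPM in MI+RDN, against 45.4, 43.8 and 54.9 CPM in MI, a log2 fold change of -1.31 close to that of Mrc1 (edgeR adjusted p = 0.0876). Lgals3, galectin-3, went the other way at 523 ± 35.4 CPM in MI+RDN and 392 ± 6.68 CPM in MI (edgeR adjusted p = 0.0761).

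The uptake receptors that work beside Timd4 and Marco were also below the threshold. Of 24 tested genes of apoptotic cell uptake 0 passed, 7 were lower and 1 higher with no overlap, beside 13.7% and 12.4% of all genes, and the median log2 fold change was -0.29. The receptor tyrosine kinase Mertk averaged 10.7 ± 3.75 CPM in MI+RDN and 20.6 ± 5.44 CPM in MI (log2 fold change -0.95, edgeR adjusted p = 0.122). Its relative Axl averaged 54.1 ± 18.1 CPM in MI+RDN and 97.5 ± 19.2 CPM in MI (log2 fold change -0.85, edgeR adjusted p = 0.123). Itgav, an integrin chain that binds bridging molecules on dying cells, had the lowest p of the list (log2 fold change -0.46, edgeR adjusted p = 0.0634). Of 13 tested scavenger receptors 0 passed, with a median of -0.12, and Ager, a receptor for glycated proteins, was the one with the lowest p, at 27.9 ± 5.42 CPM in MI+RDN and 16.1 ± 0.64 CPM in MI (log2 fold change 0.80, edgeR adjusted p = 0.0565).

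Of 16 further marginal zone genes 13 were tested and 0 passed. With no overlap 4 were lower and 0 higher, beside 13.7% and 12.4% of all genes. The median log2 fold change was -0.24. Cd209b, the SIGN-R1 lectin that defines marginal zone macrophages, was near the limit of detection at 0.15, 0.62 and 0.26 CPM in MI+RDN, against 0.77, 0.86 and 2.35 CPM in MI, and it belongs to a family of close copies that may share reads (edgeR adjusted p = 0.164). Msr1, a class A scavenger receptor related to Marco, averaged 61.8 ± 6.88 CPM in MI+RDN and 79.0 ± 3.33 CPM in MI (log2 fold change -0.35, edgeR adjusted p = 0.119). Tgm2, a transglutaminase of macrophages, averaged 115 ± 12.4 CPM in MI+RDN and 156 ± 25.6 CPM in MI (edgeR adjusted p = 0.142).

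**Figure D5:**
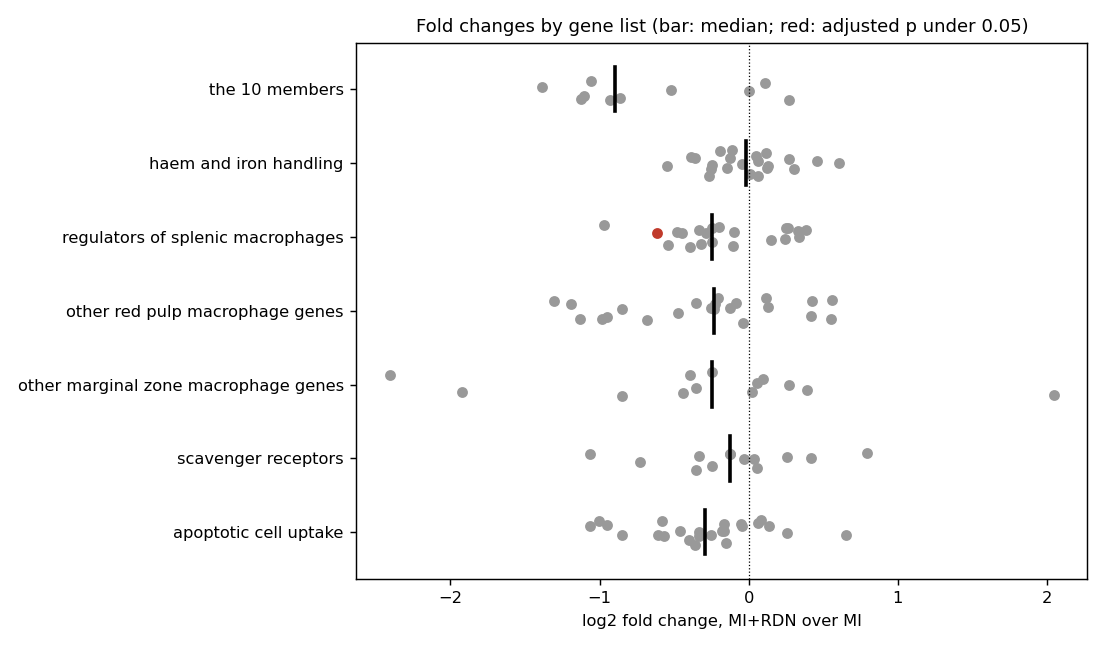
Log2 fold change of MI+RDN over MI for each tested gene (points; red for adjusted p under 0.05) and the median (bar) of the 10 members and of 6 gene lists around them; genes on several lists appear in each. The medians run from -0.90 for the members to -0.02 for haem and iron handling, and Runx3 is the only gene past the threshold.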

How the data were processed

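RNA of splenic CD11b+ cells was sequenced as strand-specific TruSeq libraries on a NovaSeq instrument, per the labels' protocols. The authors deposited raw read counts per Ensembl gene, 1 column per library, with totals of 21663440 to 28013900. FastQC 0.11.2, STAR and build GRCm39 are named in the submitters' processing notes; which counter and annotation were used, whether strand was counted and how shared reads were handled is not given in the sources used here. Symbols were matched by gene ID for 55154 of 55335 genes.

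Counts were filtered with filterByExpr, scaled with TMM and tested with edgeR 4.0.16 (R 4.3.3) by the quasi-likelihood F test over all 14849 genes and all 6 libraries, with no covariates and Benjamini-Hochberg adjustment at 0.05. CPM are means ± SD, n = 3. Standard errors and 95% intervals come from the F statistic. Log2 CPM used a prior count of 2. Figures used matplotlib 3.10.9. DESeq2 1.42.0 and limma-voom 3.58.1 were alternatives. In simulated data for this comparison (14849 genes, 3 sets, 200 changed in each), edgeR recovered 61.3% of 2-fold and 89.0% of 4-fold changes, and 3.22% of its calls were false. Gene-level calls thus miss many 2-fold changes at this depth and number of libraries. Each gene was simulated with the dispersion typical of genes at its level. The rates therefore do not cover genes that vary more than that.

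The 10 members and all gene lists were chosen with earlier results of these data known. Named genes are the members, Itgam, 10 fixed genes (Adgre1, Csf1r, Cd209b, Msr1, Bach1, Nr1h3, Fth1, Ftl1, Axl and Mertk), the passing genes of each list or otherwise its 3 lowest in p, and the 5 genes nearest to Spic and to Marco. Cd68, Emcn, Cldn5, Cdh5 and Lum were named after their values were seen. The design text calls the libraries biological replicates without saying that they came from separate animals, so p-values measure the spread between these libraries.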

Additional observations from a re-analysis of the deposited data

How the results depend on the processing

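The number of the 10 genes past the threshold was 0 in the analysis as reported. It was 1 without scaling factors, 1 with genes under 5 CPM on average removed and 1 with the replicate block (Mrc1 each time), and 4 with the DESeq2 Wald test. Leaving out each library in turn gave 0 to 1, the 1 being Cd163 without MI+RDN replicate 3. The number of all genes past it was 150 as reported, 475 without scaling factors, 21 without a filter, 290 with genes under 5 CPM on average removed, 1052 with DESeq2, 277 with robust edgeR, 87 with the replicate block and 0 to 67 with 1 library left out (0 without MI+RDN replicate 1 and 0 without MI replicate 3, where 2323 and 2084 genes had an unadjusted edgeR p under 0.05). The cause was not tested. The labels do not say that the replicate numbers pair the libraries. The correlations of same-numbered deviations were 0.0179, -0.0652 and 0.0640. With 3 libraries per group these cannot show whether the libraries are paired.

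Without scaling factors the median of all genes was -0.13, and the members' fold changes moved with it. The red pulp minus marginal zone difference of 0.19 was 0.38 with Marco alone and -0.0080 with Siglec1 alone, and 0.0945 to 0.25 with 1 library left out. Signs turned only for Hmox1 and Cd5l, among 149 repeats of the members' fold changes. Hmox1 (as reported -0.00068) was at 0.0056 with DESeq2 factors, 0.0065 without a filter, 0.0083 with DESeq2, and 0.11, 0.0151 and 0.0150 without MI+RDN replicate 1, MI replicate 2 and MI replicate 3, in a range of -0.14 to 0.11 over the libraries left out. Cd5l (0.11) was at -0.0365 without scaling factors, -0.0445 with limma-voom, -0.0098 with the replicate block, -0.43 without MI+RDN replicate 3 and -0.0906 without MI replicate 1, in a range of -0.43 to 0.45. Timd4 was below the 5 CPM filter. Marco had only 62 to 122 counts per MI+RDN library, and its SE of 0.29 was close to the 0.27 of Mrc1, which had 494 to 863. DESeq2 called 7.65% of all genes. On lists with 0 calls as reported, it called 2 genes of haem and iron handling (22 tested in edgeR) and 4 of the other red pulp genes (22 tested). It called 1 of the other marginal zone genes (13 tested), 2 scavenger receptors (13 tested) and 5 of apoptotic cell uptake (24 tested). Of cell type markers it called 12 for B cells, 10 for conventional dendritic cells and 8 for T cells (14 tested each). For neutrophils it called 8 (15 tested) and for monocytes 2 (14 tested). The remaining calls were 5 erythroid (11 tested), 1 endothelial (7 tested) and 0 stromal (3 tested).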
